A study of Mus musculus with 6 samples.

Results

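A set of 10 lymphocyte integrin chains was followed in 2 kinds of cultured mouse CD8+ T cells. The chains were 6 alpha chains (Itga4, Itga6, Itgae, Itgal, Itgav and Itgax) and 4 beta chains (Itgb1, Itgb2, Itgb3 and Itgb7). All probe sets whose platform gene symbol is one of these were taken, which gave 20 of 36899 probe sets and 10 of 15964 named genes. Of the 20, 17 were on the SubA array type, 2 on SubB and 1 on SubC.

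Both kinds of cells came from spleens and lymph nodes of female P14 mice of the C57Bl/6 background, whose T cells carry a transgenic receptor for a viral peptide. The whole cell suspension was given that peptide for 2 days. Central memory (CM) cells then grew for 7 days in IL-15 and were sorted for a high level of a surface marker, and effector/effector memory (E/EM) cells grew for 7 days in IL-2 and were sorted for a low level of the same marker. Each kind was put on 1 array of each type, 6 arrays in all, and it is not stated if 1 RNA sample served the 3 arrays of a kind. Both cytokine and sort gate differ between the kinds, so their parts cannot be told apart, and cells made in culture are a model of memory cells rather than memory cells taken from an animal.

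An integrin is a cell surface adhesion receptor built from 1 alpha and 1 beta chain, and a chain generally reaches the surface only with a partner. Itgal pairs with Itgb2 to form LFA-1, which binds ICAM ligands in T cell arrest and at contacts with target cells. Itga4 pairs with Itgb1 to bind VCAM-1 and fibronectin, or with Itgb7 to bind the gut vascular addressin MAdCAM-1. Itgae, which encodes CD103, pairs with Itgb7 to form the receptor for E-cadherin that is known from T cells kept in epithelia. Signals from T cell and chemokine receptors change the affinity of integrins without new transcription, so mRNA levels describe only part of adhesion.

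With 1 array per kind and array type there was no replicate and no test, and every value describes these arrays. A signal is a probe set's linear intensity. The floor is a background level set by bacterial control probe sets, 31.28 on SubA, 88.12 on SubB and 194.34 on SubC. A log2 ratio is CM over E/EM signal, so a negative one means a lower signal in CM cells. A gene's log2 ratio is the mean over its probe sets above the floor on both arrays, with the SD over those probe sets, which is technical. Signals of different probe sets are not comparable in level. In RNA from a cell population, fewer cells of a type and less RNA per cell cannot be told apart.

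The labelled cell type was checked against its markers. Of 8 cytotoxic T cell markers 7 had probe sets, and all 7 had a probe set above the floor on the CM and the E/EM array. The probe set of Cd8a, a chain of the CD8 coreceptor, had a signal of 5882.7 in CM cells and 5133.8 in E/EM cells. The share of probe sets above the floor was 47.1% (CM) and 47.3% (E/EM) on SubC, the lowest of the 3 array types.

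The 10 chains did not shift together. Itgav was lower in CM cells, 2.88-fold, and Itgax was higher in CM cells, 3.02-fold. These were the only 2 of the 10 past 2-fold, 1 in each direction. Over all 10946 named genes measured above the floor on both arrays, 5.61% were at least 2-fold lower in CM cells and 2.73% at least 2-fold higher. For 10 genes these shares come to less than 1 gene in each direction, so a count of 1 is the smallest that could exceed them and is not read as a result about the chains as a group. At 3-fold, Itgax alone passed, against 0.557% of genes higher and 1.54% lower by that rule. Between 1.5-fold and 2-fold lay Itgae on the lower side and Itga6 on the higher side. The other 6 chains (Itga4, Itgal, Itgb1, Itgb2, Itgb3 and Itgb7) differed by less than 1.5-fold, as did 76.0% of all measured genes. The median log2 ratio was 0.22 over the 10 chains, with 7 above 0 and 3 below, and -0.0025 over all measured genes. All 4 beta chains were among the 6 that differed by less than 1.5-fold, and the largest differences lay among the alpha chains.

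**Figure D1:**
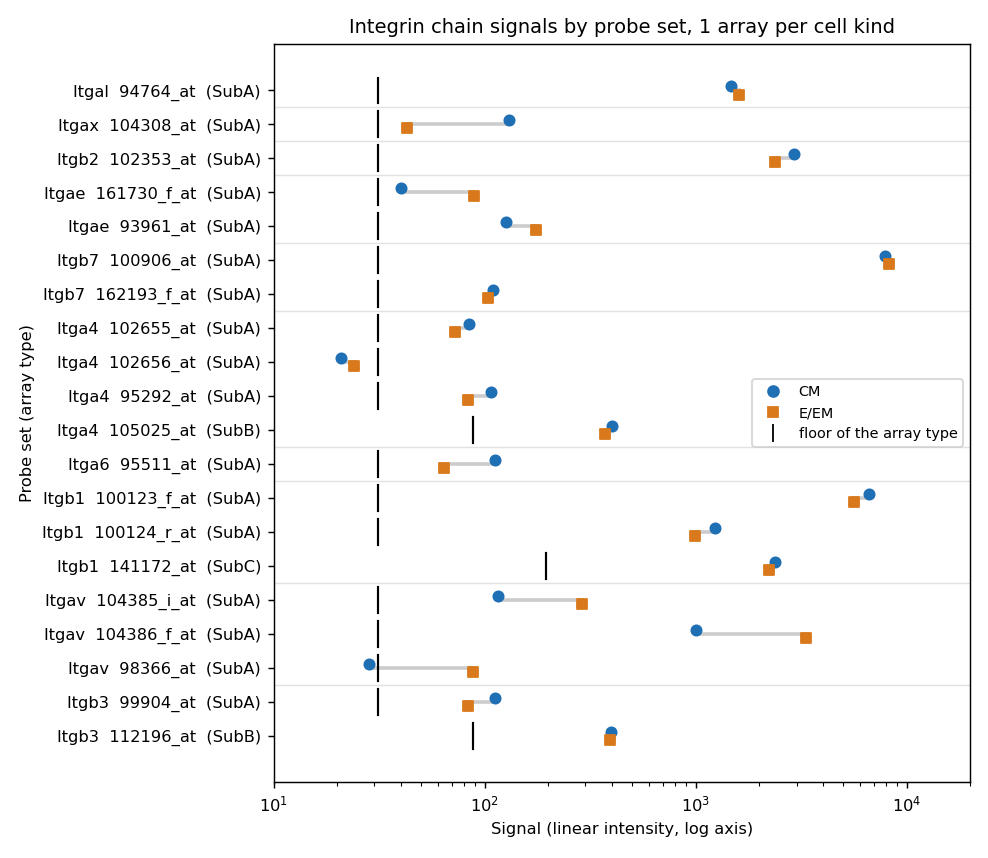
Signal of each of the 20 integrin probe sets (log axis) on the CM array (circles) and the E/EM array (squares) of its array type, with the floor of that type as a vertical tick. The 3 Itgav probe sets have CM left of E/EM, Itgax has CM right of E/EM, and most other pairs of points nearly touch.

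Itgav encodes the alpha-v chain, which pairs with several beta chains in receptors for vitronectin and other ligands with an RGD motif, some of which activate latent TGF-beta. Its brightest probe set, 104386_f_at, had a signal of 1003.5 in CM cells and 3332.2 in E/EM cells, a log2 ratio of -1.73. A further probe set, 104385_i_at, had 115.5 in CM cells and 287.7 in E/EM cells, a log2 ratio of -1.32. Both were lower in CM cells by more than 2-fold, but they were designed from the same transcript record, so they are not separate evidence.

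The only Itgav probe set built on another record, 98366_at, had 28.3 in CM cells and 87.8 in E/EM cells. Its CM signal lay under the floor, so it gives only a bound, at least 2.81-fold lower in CM cells. All 3 probe sets thus had the lower signal in CM cells. The gene's log2 ratio over the first 2 was -1.52 ± 0.29 (SD, 2 probe sets), rank 194 from the lowest of 10946 measured genes. The identifiers of both carry a suffix that marks possible shared or incomplete probes. Without marked probe sets Itgav had no ratio, only the bound. The signal of 104386_f_at in CM cells was 32.1 times the floor. Among SubA probe sets whose weaker signal was at least 10 times the floor, 2.19% were at least 2-fold lower in CM cells.

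Itgb3, a partner of the alpha-v chain in the vitronectin receptor, did not follow Itgav. Its SubA probe set had a signal of 111.7 in CM cells and 83.1 in E/EM cells, a log2 ratio of 0.43. Its SubB probe set had 396.1 in CM cells and 390.4 in E/EM cells, a log2 ratio of 0.02. Both probe sets had a slightly higher signal in CM cells, by less than 1.5-fold. The gene's log2 ratio was 0.22 ± 0.29 (SD, 2 probe sets on 2 array types), smaller than its SD. The log2 ratio of Itgav was 1.75 lower than that of Itgb3 (a difference of -1.75), and -1.74 set against Itgb1, another partner.

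Further partners of the alpha-v chain, Itgb5 and Itgb8, were in the list of other integrin chains. The probe sets of Itgb5 disagreed. One, 100601_at, had 26.1 in CM cells and 198.9 in E/EM cells, at least 6.36-fold lower in CM cells. The other, 162218_f_at, had 97.7 in CM cells and 101.0 in E/EM cells, a log2 ratio of -0.05. Both probe sets of Itgb8 lay under the floor in both kinds of cells. No direction is therefore given for Itgb5.

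The beta-2 integrins are leukocyte receptors. Itgb2, their shared beta chain, had a signal of 2909.3 in CM cells and 2373.5 in E/EM cells, a log2 ratio of 0.29. Itgal, the alpha chain of LFA-1, had 1462.4 in CM cells and 1609.8 in E/EM cells, a log2 ratio of -0.14. Both chains of LFA-1 were thus far above the floor on both arrays and differed between the kinds of cells by less than 1.5-fold, in opposite directions. Each was measured by 1 probe set, so neither has a spread.

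Itgax encodes CD11c, an alpha chain that pairs with Itgb2, is best known from dendritic cells and also appears on some activated CD8+ T cells. Its only probe set, 104308_at, had a signal of 130.3 in CM cells and 43.1 in E/EM cells, a log2 ratio of 1.60. The CM array was clearly above the floor and the E/EM array only 1.38 times the floor. This was rank 59 from the highest of 10946 measured genes. A weak signal makes such ratios more frequent. Of SubA probe sets whose weaker signal was 1 to 2 times the floor, 4.75% were at least 2-fold higher in CM cells. With the floor doubled Itgax had no ratio.

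The 7 other dendritic cell markers with a ratio were split. Cd209a, a lectin, had a log2 ratio of 0.44, the MHC class II chain gene H2-Aa 0.34 and the chemokine receptor gene Xcr1 0.03. Below 0 were the growth factor receptor gene Flt3 at -0.19, the invariant chain gene Cd74 at -0.74 and the class II chain genes H2-Eb1 and H2-Ab1 at -1.23 and -1.29. Class II chains thus lay on both sides of 0, but the values differ in strength. H2-Aa and Cd209a each rest on 1 marked SubC probe set, with weaker signals 1.30 and 1.25 times the floor. The other probe sets of H2-Aa lay under the floor. On SubA the weaker signals of H2-Eb1 and H2-Ab1 were 1.60 and 6.75 times the floor. Without a ratio, Ciita and Ccr9 had a probe set above the floor in E/EM cells alone. Of 11 such markers with probe sets, 7 had a probe set above the floor in CM cells and 9 in E/EM cells. Summed over the 10 probe sets on SubA, the array type of Itgax, their signals came to 798.2 in CM cells and 1329.8 in E/EM cells, and over the 4 on SubC to 788.9 in CM cells and 594.1 in E/EM cells, the reverse order. These sums add probe sets of unlike scale, some under the floor, and H2-Ab1 alone had 211.0 in CM cells and 516.5 in E/EM cells. Zbtb46, a transcription factor of classical dendritic cells, and Siglech, a receptor of plasmacytoid ones, were at or under the floor in both kinds of cells, and no marker probe set had a signal of 0. The part of such cells in the Itgax signal was not tested.

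In the RefSeq annotation of GRCm38.p6 Itgax lies between Itgam and Itgad, which encode related beta-2 alpha chains of myeloid cells. The Itgam probe set had 3.7 in CM cells and 16.0 in E/EM cells on SubA, and the Itgad probe set 65.9 in CM cells and 40.0 in E/EM cells on SubC. Both lay under the floor in both kinds of cells, so neither neighbour has a ratio.

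**Figure D2:**
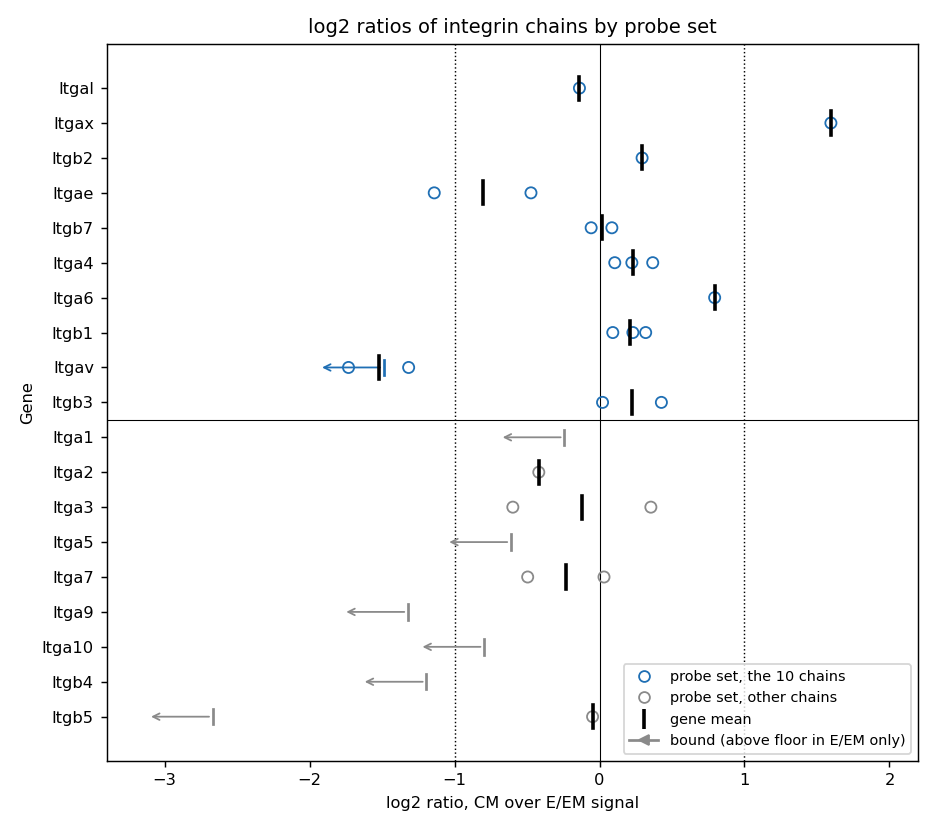
Log2 ratio, CM against E/EM (horizontal axis) for the 10 integrin chains and, under the line, the 9 other integrin chains above the floor on at least 1 array. Open circles are probe sets, black bars gene means, and arrows probe sets above the floor in E/EM cells alone, where the ratio is the bound or lower; dotted lines mark 2-fold.

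Among the chains of gut and epithelial homing, Itgb7 had nearly equal signals. Its brighter probe set, 100906_at, had 7872.3 in CM cells and 8193.3 in E/EM cells, a log2 ratio of -0.06. The other, 162193_f_at, had 109.9 in CM cells and 103.6 in E/EM cells, a log2 ratio of 0.09. The mean of 0.01 ± 0.10 (SD, 2 probe sets) gives Itgb7 no direction.

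Itgae, which encodes CD103, had the lower signal in CM cells on both of its probe sets. The first, 93961_at, had 125.8 in CM cells and 174.6 in E/EM cells, a log2 ratio of -0.47. The second, 161730_f_at, had 40.2 in CM cells and 88.6 in E/EM cells, a log2 ratio of -1.14. The CM signal of the second was only 1.29 times the floor, a range in which 9.86% of SubA probe sets were at least 2-fold lower in CM cells. The mean was -0.81 ± 0.47 (SD, 2 probe sets), 1.75-fold lower in CM cells. The probe sets share the direction but not the size, and the brighter one alone stays under 1.5-fold. The log2 ratio of Itgae was lower than that of its partner Itgb7 by a difference of -0.82.

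Itga4, the alpha chain of the VCAM-1 and MAdCAM-1 receptors, had 4 probe sets. On SubA 95292_at had 107.3 in CM cells and 83.2 in E/EM cells, and 102655_at had 84.5 in CM cells and 72.4 in E/EM cells. On SubB 105025_at had 401.2 in CM cells and 373.0 in E/EM cells. The CM array was slightly higher each time, with log2 ratios of 0.37, 0.22 and 0.11. The fourth, 102656_at, lay under the floor with 20.8 in CM cells and 24.1 in E/EM cells, so it has no ratio. The gene's log2 ratio was 0.23 ± 0.13 (SD, 3 probe sets on 2 array types).

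Itgb1 is the beta chain shared by most receptors for extracellular matrix. Its SubA probe sets had 6596.2 in CM cells and 5623.9 in E/EM cells (100123_f_at) and 1234.7 in CM cells and 990.2 in E/EM cells (100124_r_at). Its SubC probe set had 2373.9 in CM cells and 2228.0 in E/EM cells. All 3 had a slightly higher signal in CM cells, and the gene's log2 ratio was 0.21 ± 0.11 (SD, 3 probe sets on 2 array types). The SubA pair comes from a single transcript record. Without it and other marked probe sets the log2 ratio was 0.09.

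Itga6 forms the laminin receptor with Itgb1. Its only probe set, 95511_at, had 111.5 in CM cells and 64.3 in E/EM cells, a log2 ratio of 0.79, or 1.73-fold higher in CM cells. Its signal in E/EM cells was 2.06 times the floor. Over all measured genes 10.1% were at least 1.5-fold higher in CM cells, and 13.9% were at least 1.5-fold lower.

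Set side by side as receptors, 8 pairs of alpha and beta chains differed in log2 ratio to unequal degrees. For the Itga4 and Itgb1 pair the values were 0.23 and 0.21, nearly equal. For Itga4 with Itgb7 the alpha chain was higher by 0.22, for Itga6 with Itgb1 by 0.58, and for Itgax with Itgb2 by 1.30. For Itgal with Itgb2 the difference of alpha minus beta was -0.43. The differences for Itgav and Itgae, given above, were negative. The median SD over probe sets of a gene was 0.32 over 4094 genes, and the differences between partners, other than those of Itga4, were more than that in size. That SD is the spread within a gene, not that of a difference between genes.

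**Figure D3:**
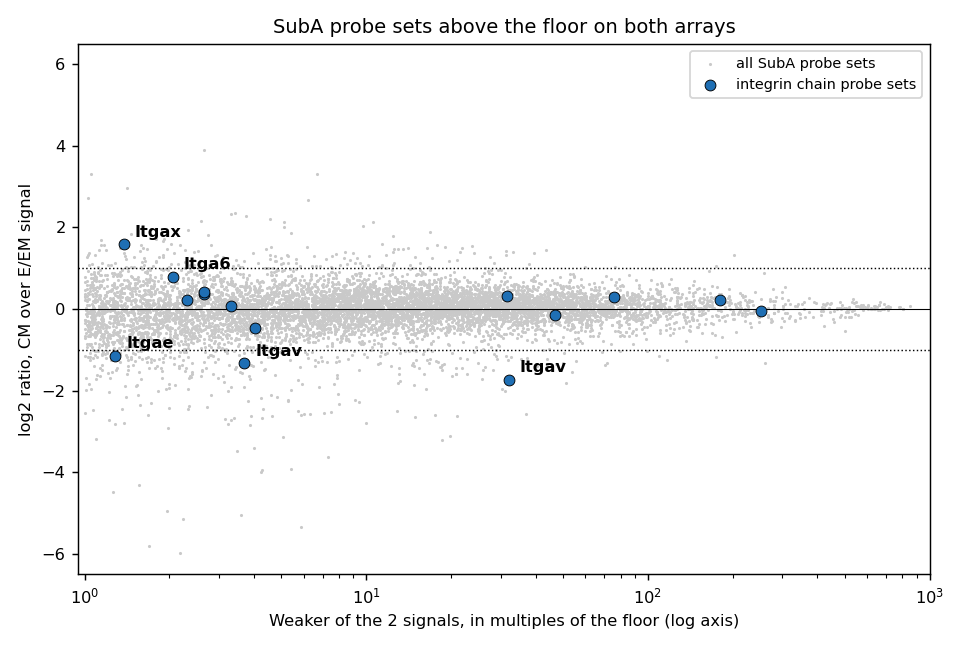
Log2 ratio, CM against E/EM, plotted over the weaker of the 2 signals in multiples of the floor (log axis), for all SubA probe sets above the floor on both arrays (grey) and those of the integrin chains (blue). The cloud widens to the left, where Itgax, Itga6 and the lower Itgae probe set lie. The brightest Itgav probe set lies on its lower side, past 2-fold, at 32.1 times the floor. Dotted lines mark 2-fold.

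Fewer of the other integrin chains could be measured. Of 16 such chains 15 had probe sets, and 4 had a ratio, none of them past 2-fold (log2 ratios between -0.42 and -0.05, median -0.18). Itgb5, at -0.05, counts here by 1 of its 2 probe sets, and the other gave the bound of 6.36-fold stated above. Itga2, a collagen receptor chain, had 37.4 in CM cells and 50.0 in E/EM cells, a log2 ratio of -0.42. Itga7, a laminin receptor chain, had a log2 ratio of -0.23 ± 0.37 (SD, 2 probe sets). Itga3, also a laminin receptor chain, had -0.12 ± 0.67 (SD, 2 probe sets), with probe sets at -0.60 and 0.35, so its direction is not settled.

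A further 5 of these chains were above the floor in E/EM cells alone and 0 in CM cells alone. Over the 5018 named genes without a ratio, 19.0% were above the floor in E/EM cells alone and 11.5% in CM cells alone, so E/EM alone was the more frequent over all genes too. Itga9 was at least 2.50-fold lower in CM cells, with 73.7 in CM cells and 220.3 in E/EM cells. Itgb4 was at least 2.29-fold lower, with 29.8 in CM cells and 71.6 in E/EM cells. Itga10 was at least 1.74-fold lower, Itga5, the alpha chain of the fibronectin receptor, at least 1.53-fold, and Itga1 at least 1.18-fold. The remaining 6 (Itga2b, Itga8, Itga11, Itgad, Itgam and Itgb8) were at or under the floor in both kinds of cells.

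Markers of other cells that carry such chains were mostly weak. The myeloid and mast cell markers that had a ratio had a negative mean log2 ratio, some of them near the floor. All 5 measured macrophage, monocyte and neutrophil markers had a negative log2 ratio, with a median of -0.50. The lysosomal protein gene Cd68 had -1.16 on 1 marked probe set, with 89.4 in CM cells and 199.5 in E/EM cells. The receptor genes Cd14 and Csf3r had -0.63 and -0.50, and Mpeg1 had -0.39 with its CM signal 1.18 times the floor. Csf1r had -0.06 ± 0.21 (SD, 2 probe sets), with probe sets at 0.09 and -0.21, so it has no direction. The granulocyte marker Ly6g was at least 4.91-fold lower in CM cells, with 17.1 in CM cells and 153.6 in E/EM cells. Both lysozyme genes, Lyz1 and Lyz2, lay at or under the floor. Of 13 such markers with probe sets, 5 were above the floor in CM cells and 6 in E/EM cells. On SubA their signals summed to 568.5 in CM cells and 937.7 in E/EM cells. Of the 19 probe sets in that sum, only 6 were above the floor in CM cells and 7 in E/EM cells.

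All 3 measured mast cell and basophil markers were likewise lower in CM cells, with a median log2 ratio of -0.99. Kit, the stem cell factor receptor, had -1.86, with 48.1 in CM cells, 1.54 times the floor, and 174.9 in E/EM cells. Ms4a2, a chain of the IgE receptor, had -0.99 and the tryptase gene Tpsb2 -0.65 ± 0.45 (SD, 2 probe sets). Markers without a ratio lay on both sides. Hdc, with 41.6 in CM cells and 21.9 in E/EM cells, was above the floor in CM cells alone. So was a probe set of Mcpt1, with 41.5 in CM cells and 5.2 in E/EM cells. A probe set of Cma1, with 19.3 in CM cells and 43.5 in E/EM cells, was above it in E/EM cells alone. Of 12 such markers with probe sets, 5 were above the floor in CM cells and 4 in E/EM cells. On SubA they summed to 474.4 in CM cells and 761.5 in E/EM cells. Of the 18 probe sets in that sum, only 5 were above the floor in CM cells and 4 in E/EM cells. The part of myeloid or mast cells in the Itgav ratio was not tested.

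The sums that follow are over SubA and the counts of markers over all 3 array types. Like the sums above, they add probe sets of unlike scale, some under the floor, and so do not measure the content of a cell type. Platelet markers summed to 127.3 in CM cells and 92.2 in E/EM cells, with 2 of the 6 that had probe sets above the floor in CM cells and 1 in E/EM cells. Of the 5 platelet probe sets in that sum, 2 were above the floor in CM cells and 1 in E/EM cells, so most were background. Stromal and endothelial markers summed to 775.2 in CM cells and 806.1 in E/EM cells, with 4 of 8 above the floor in CM cells and 5 in E/EM cells. B cell markers summed to 9445.9 in CM cells and 7359.8 in E/EM cells, with 6 of 7 above the floor in each kind. Most of this sum came from 2 probe sets of Ighm. One had 5306.6 in CM cells and 3802.4 in E/EM cells, the other 3311.8 in CM cells and 2711.3 in E/EM cells. By log2 ratio, 2 of the 6 measured B cell markers were above 0 and 4 below, with a median of -0.165. Natural killer cell markers summed to 2861.1 in CM cells and 1685.8 in E/EM cells, with 3 of 4 above the floor in each kind. Most of this sum came from Eomes, whose brighter probe set had 1829.6 in CM cells and 937.5 in E/EM cells. Nkg7, measured on SubC and so not in this sum, had a log2 ratio of 0.56 ± 0.13 (SD, 3 probe sets). Ncr1 lay under the floor in both kinds, and Itga2 had a log2 ratio of -0.42. The part of any of these cells in the integrin signals was not tested.

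Of the integrin ligands 29 had probe sets and 16 had a ratio, with 1 at least 2-fold higher in CM cells, 1 at least 2-fold lower and a median of 0.09. Icam2, a ligand of LFA-1 on leukocytes and endothelium, had 575.8 in CM cells and 268.1 in E/EM cells, a log2 ratio of 1.10. Madcam1, the gut addressin, had 61.7 in CM cells and 32.1 in E/EM cells, a log2 ratio of 0.94 with the weaker signal only 1.03 times the floor. Ligands of the measured receptors chosen after their values were seen were Icam1, Vcam1, Fn1 and Cdh1. Icam1, the main LFA-1 ligand, had 451.4 in CM cells and 407.0 in E/EM cells, a log2 ratio of 0.15. Lama5, a laminin chain, had a mean log2 ratio of -1.01 ± 1.11 (SD, 2 probe sets). Its probe sets, at -1.80 and -0.23, share a sign but differ so far that the size is not settled. All 3 probe sets of Vcam1, the ligand of Itga4 with Itgb1, lay under the floor in both kinds of cells, as did Fn1, which encodes fibronectin. Cdh1, the E-cadherin ligand of CD103, had 182.0 in CM cells and 208.6 in E/EM cells, a log2 ratio of -0.20.

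Of the genes that switch integrins on or off from inside the cell, 29 had probe sets and 26 a ratio, with 0 at least 2-fold higher in CM cells, 1 at least 2-fold lower and a median of -0.01. Tln1, the talin that binds beta chain tails in leukocytes, had a log2 ratio of -0.17 ± 0.26 (SD, 3 probe sets), while its paralogue Tln2 had -1.03 on 1 measured probe set of 4, with 181.3 in CM cells and 369.9 in E/EM cells. Rapgef3, an activator of the small GTPase Rap that responds to cyclic AMP, was at least 6.19-fold lower in CM cells, with 17.1 in CM cells and 545.6 in E/EM cells on 1 SubB probe set. Fyb (ADAP), an adaptor that links the T cell receptor to integrins, had 0.95, with 6156.4 in CM cells and 3192.3 in E/EM cells on its measured probe set. Cyth1, or cytohesin-1, which binds the Itgb2 tail, had 0.94 ± 0.28 (SD, 2 probe sets on 2 array types). Fermt3, the kindlin of blood cells, had -0.32, and the Rap effector Rassf5 had 0.42; these 2 genes and Tln1 were chosen after their values were seen.

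Of the adhesion complex and outside-in signalling genes, 33 had probe sets and 29 a ratio, with 1 at least 2-fold higher in CM cells, 1 at least 2-fold lower and a median of 0.11. Actn1, an alpha-actinin that ties integrin complexes to actin, had signals of 2149.6 in CM cells and 740.8 in E/EM cells on its brightest probe set. Its log2 ratio was 1.34 ± 0.18 (SD, 3 probe sets on SubA), of which 104578_f_at and 104579_r_at are marked. The SubC probe set of Actn1 lay under the floor, with 20.0 in CM cells and 19.2 in E/EM cells. Cd81, a tetraspanin that associates with beta-1 integrins, had 103.9 in CM cells and 394.0 in E/EM cells, a log2 ratio of -1.92 on 1 probe set. Dock2, a Rac activator of lymphocyte migration, had 0.84 ± 0.27 (SD, 2 probe sets on 2 array types). In each of these 3 lists the count past 2-fold was 0 or 1 in either direction, among 16, 26 and 29 measured genes. Set beside the shares of all measured genes, 5.61% lower and 2.73% higher, a difference of 1 gene separates these lists from the background at most. Rapgef3 has only a bound and is not in these counts. Of the 5018 named genes without a ratio, 5.24% had a bound of at least 2-fold lower in CM cells.

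**Figure D4:**
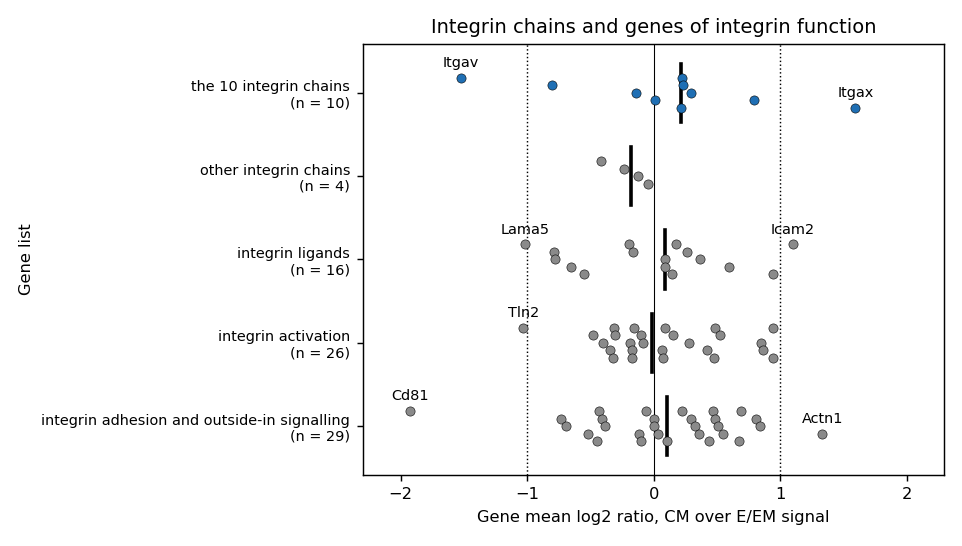
Gene mean log2 ratio, CM against E/EM, for the 10 integrin chains and 4 lists of related genes, with n the number of genes measured, black bars the list medians and dotted lines 2-fold. All 5 medians lie between -0.18 and 0.22, and 7 genes past 2-fold are named.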

How the data were processed

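Total RNA of sorted CM and E/EM cells was hybridised to 3 array types, per the labels. Each array type has a deposited table of intensities, linear and 1 per probe set, with a 2% trimmed mean of 500.1 to 500.3 on each array, so they were used unscaled. Neither labels nor files name the scanner software or any step before deposit. Symbols came from GEO's platform annotation, and the Entrez identifiers of the members were checked against RefSeq. A probe set with several symbols named no gene.

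The floor was the higher of both arrays' 90th percentiles over 15 bacterial control probe sets. Ratios were taken within a table. A gene above the floor on 1 array only got a bound, the signal over the floor. Named were all members, other integrin chains above the floor on 1 array or more, and genes of the ligand, activation and adhesion lists past 2-fold, with a bound of 4-fold or among the 3 largest of a list. The markers named from the marker lists, and genes said to be so, were chosen after their values were seen. Members and lists were chosen with earlier results of these data known. Calculations used Python 3.11.15, numpy 2.4.6 and pandas 2.3.3 and were tested on simulated data. The 11 alternatives concern normalization, centring, floor, probe sets, array types and the fold rule. The number of arrays limits precision.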

Additional observations from a re-analysis of the deposited data

How the results depend on the processing

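The 10 chains gave 85 log2 ratios under the alternatives, and 81 kept their sign and all 85 their side of 2-fold. The other 4 belonged to Itgb7, whose ratio lay between -0.06 and 0.07. Many of the 85 could not differ from the value given above. A chain measured by 1 SubA probe set, such as Itga6, keeps its ratio or loses it when the floor, probe sets or array types change. Of 90 possible ratios, those lost under a setting are not among the 85. The count is therefore not a measure of robustness. Itgav ranged from -1.73 to -1.50 over 8 alternatives and Itgax from 1.57 to 1.76 over 7. The count of chains at least 2-fold higher in CM cells went to 0 with the floor doubled and with a floor at the 60th percentile of each table, where Itgax had no ratio. The count at least 2-fold lower went to 0 without marked probe sets, where Itgav had only a bound, and to 0 under a 3-fold rule. A 1.5-fold rule gave 2 lower and 2 higher chains. The median over the chains stayed between 0.02 and 0.28 in the alternatives run.

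Over the other integrin chains, ligands, activation and adhesion lists together, 3 genes were at least 2-fold lower and 2 higher. The lower count was 8 with the floor halved and 0 with the 60th percentile floor. The brightest probe set per gene gave 5 lower and 4 higher, and SubA alone gave 4 higher. By the 1.5-fold rule 8 were lower and 12 higher, and by the 3-fold rule 1 was lower and 0 higher. Weak signals near the floor limit Itgax, Itga6, Itgae and most other chains. Without replicates, the spread between cultures is unknown.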
